A study of Mus musculus with 6 samples.

Results

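Lag3, Havcr2, Cd28, Cd80, Cd86 and Cd274 are receptors and ligands of T cell co-stimulation and of immune checkpoints. These 6 genes, matched by gene name, are 6 of the 26554 features in the deposited tables. They were measured by poly(A) RNA-seq in VPL/VPM tissue, the ventral posterior thalamus that relays touch and pain to the cortex. The collagenase group is wild-type (WT) C57 mice 14 days after a right-side injection of 10 nL holding 0.01 U of collagenase IV, an enzyme used to weaken vessel walls and cause haemorrhage (3 libraries). The saline group is WT C57 mice 14 days after the same volume of saline (3 libraries), so both groups were injected. The study is of a model of central post-stroke pain, called CPSP in its design text. Mouse age and sex, and whether a library is 1 animal or a pool, are not given in the labels, so every spread and p-value below measures only the spread between these samples, which may be technical.

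T cells need a second signal beside antigen. CD28 on the T cell gives it when it binds CD80 or CD86, the B7 ligands on antigen-presenting cells such as dendritic cells, macrophages and activated microglia. Checkpoint receptors oppose it: LAG3 binds class II antigen-presenting molecules, TIM-3 (gene Havcr2) binds galectin-9 and other ligands, and PD-1 binds PD-L1 (gene Cd274), which interferons induce in many cell types. LAG3 and TIM-3 are best known on T cells, but in mouse brain Havcr2 is also a gene of microglia. Which cells carried the Lag3 RNA of these samples was not tested.

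The 6 genes were chosen with their collagenase and saline values known, so their levels are given as a description and without a test. Levels are CPM, counts scaled to library size with TMM factors, and levels of different genes are compared on the deposited FPKM, which corrects for length. Total counts ranged from 33603076 to 44815451 per library. Thalamic relay genes were abundant, with summed levels of 1852 to 2154 CPM in collagenase and 1877 to 2756 CPM in saline libraries over 5 genes. Other tissue in the samples varied. Choroid plexus and ependymal genes summed to 35.8 to 1974 CPM in collagenase and 42.0 to 2579 CPM in saline libraries, with replicate 3 lowest in both groups. Genes of hippocampal and cortical neurons summed to 343.4 to 370.9 CPM in collagenase and 529.6 to 627.5 CPM in saline libraries, and 1 of 6, Slc17a7, fell. Slc17a7 carried most of these sums, and other genes of the list split the saline group. Neurod6 measured 23.0, 39.8 and 0.176 CPM in saline replicates 1, 2 and 3, and Neurod2 10.2, 12.4 and 0.968 CPM. In collagenase replicates 1, 2 and 3 they measured 3.65, 0.538 and 0.570 CPM, and 5.88, 1.34 and 1.58 CPM. Astrocyte genes summed to 1190 to 1713 CPM in collagenase and 742.4 to 835.0 CPM in saline libraries, and 2 of 4, Gfap and Aqp4, rose. The calls of Slc17a7, Aqp4 and Gfap ended in 4, 4 and 3 of 6 fits without a library, saline replicate 1 and collagenase replicates 1 and 2 among those left out in each case. The part of these differences in the members' values was not tested. In these bulk samples the number of cells of a type and the RNA per cell cannot be told apart.

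The RefSeq promoter table (GRCm38.p6) held Havcr2, Cd80 and Cd274, 3 of the 6 genes; Lag3, Cd28 and Cd86 had no entry. The 250 bases before each RefSeq start are shown for these 3 genes because only they had an entry. As described below, Havcr2 was higher in every collagenase library, Cd80 overlapped between groups, and Cd274 was lower on average. No link between these patterns and the 3 windows was tested. All 3 lie on the plus strand, at chr11:46454681-46454930, chr16:38458683-38458932 and chr19:29367188-29367437. The Cd80 window lies inside the GENCODE span of the gene given below. Capitals mark matches to a searched motif.
Havcr2: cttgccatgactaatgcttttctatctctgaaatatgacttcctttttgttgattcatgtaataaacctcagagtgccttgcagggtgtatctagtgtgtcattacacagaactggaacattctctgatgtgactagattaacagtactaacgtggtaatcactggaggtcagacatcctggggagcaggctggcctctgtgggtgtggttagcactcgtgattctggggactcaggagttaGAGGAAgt
Cd80: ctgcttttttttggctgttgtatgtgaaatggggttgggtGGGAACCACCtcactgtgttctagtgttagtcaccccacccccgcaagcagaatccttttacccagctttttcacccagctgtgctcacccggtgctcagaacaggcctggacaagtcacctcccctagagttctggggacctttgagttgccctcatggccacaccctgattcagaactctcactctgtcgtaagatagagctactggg
Cd274: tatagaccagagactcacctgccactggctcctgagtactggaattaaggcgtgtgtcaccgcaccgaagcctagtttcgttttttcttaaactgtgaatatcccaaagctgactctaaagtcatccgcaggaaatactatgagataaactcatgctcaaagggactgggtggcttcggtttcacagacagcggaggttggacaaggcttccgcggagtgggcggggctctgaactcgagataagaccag
Both strands were searched for 3 motifs. GAGGAA, the core bound by the myeloid factor PU.1 and other ETS proteins, stood 8 bases before the Havcr2 start and is found in 23.3% of all 32851 windows of this length. A form of the NF-kB site, GGGA and CC with any 4 bases between them, stood 210 bases before the Cd80 start and is found in 17.6% of windows. The core of the interferon-stimulated response element, GAAA and GAAA with any 2 bases between them, is found in 2.98% of windows and matched in none of the 3 shown. The Cd274 window held none of the 3 motifs, which says only that these letters are not in this window.

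Lag3 (ENSMUSG00000030124, chromosome 6, 124904361 to 124911705, minus strand, GRCm38) was the member with the widest gap between groups relative to its spread. This inhibitory receptor is related to CD4 and binds class II molecules. Its level was 27.2, 26.1 and 20.0 CPM in collagenase replicates 1, 2 and 3, against 3.88, 3.46 and 2.99 CPM in saline replicates 1, 2 and 3. The groups did not overlap, and the lowest collagenase library stood 5.16-fold above the highest saline library. Lag3 averaged 24.4 ± 3.88 CPM in collagenase and 3.44 ± 0.442 CPM in saline libraries (SD, n = 3 each), with 2.82 as log2 fold change and 0.18 as its standard error (SE). No annotated gene overlaps it. Its neighbour Ptms, on the same strand, measured 252.7 ± 53.2 CPM in collagenase and 286.0 ± 86.8 CPM in saline libraries, with overlapping groups.

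Havcr2 (ENSMUSG00000020399, chromosome 11, 46454935 to 46481255, plus strand), which encodes the checkpoint receptor TIM-3 of T cells and myeloid cells, was also separated by group, with a smaller difference. It measured 7.92, 6.67 and 5.86 CPM in the collagenase libraries, against 2.70, 2.88 and 2.64 CPM in the saline libraries. The saline libraries lay close together and the lowest collagenase library stood 2.03-fold above the highest of them. The log2 fold change was 1.31 (SE 0.19).

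Cd28 (ENSMUSG00000026012, chromosome 1, 60716800 to 60773359, plus strand), the co-stimulatory receptor of T cells, was the least abundant member. It had 63, 26 and 19 counts in the collagenase libraries, against 4, 0 and 2 counts in the saline libraries. The groups did not overlap, but the gene entered the fit only because of its collagenase counts. Over the groups, 108 against 6 counts gave a depth-scaled ratio of 16.5 with an exact 95% counting interval of 7.32 to 45.8, which leaves out the spread between samples. The fitted log2 fold change was 3.93 (SE 0.74).

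The B7 ligands that CD28 binds differed from each other. Cd86 (ENSMUSG00000022901, chromosome 16, 36603869 to 36666081, minus strand), the B7 ligand found on resting as well as activated antigen-presenting cells, measured 7.31, 5.65 and 5.23 CPM in the collagenase libraries, against 2.34, 1.77 and 2.41 CPM in the saline libraries. The groups did not overlap and the log2 fold change was 1.48 (SE 0.22). Cd80 (ENSMUSG00000075122, chromosome 16, 38455561 to 38496335, plus strand), the B7 ligand induced on activation, measured 1.68, 1.05 and 1.06 CPM in the collagenase libraries, against 0.879, 1.28 and 0.763 CPM in the saline libraries. Saline replicate 2 lay above collagenase replicates 2 and 3, and the log2 fold change was 0.38 (SE 0.34). Without collagenase replicate 1 it was 0.12, and without saline replicate 2 it was 0.62. The ratio of Cd86 to Cd80 in FPKM was 5.02, 6.77 and 6.25 in the collagenase libraries, against 3.37, 1.76 and 3.95 in the saline libraries, so it did not overlap between groups.

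Cd274 (ENSMUSG00000016496, chromosome 19, 29367455 to 29388095, plus strand), which encodes PD-L1, was the member with a negative difference. It measured 7.48, 4.36 and 3.91 CPM in the collagenase libraries, against 7.95, 8.35 and 7.30 CPM in the saline libraries. Collagenase replicates 2 and 3 were below every saline library, while collagenase replicate 1 lay inside the saline range. The log2 fold change was -0.58 (SE 0.25), or -0.93 without collagenase replicate 1. An annotated antisense gene, not analysed here, overlaps Cd274, and with a protocol that names no strand step the reads of the pair may not be separable.

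**Figure D1:**
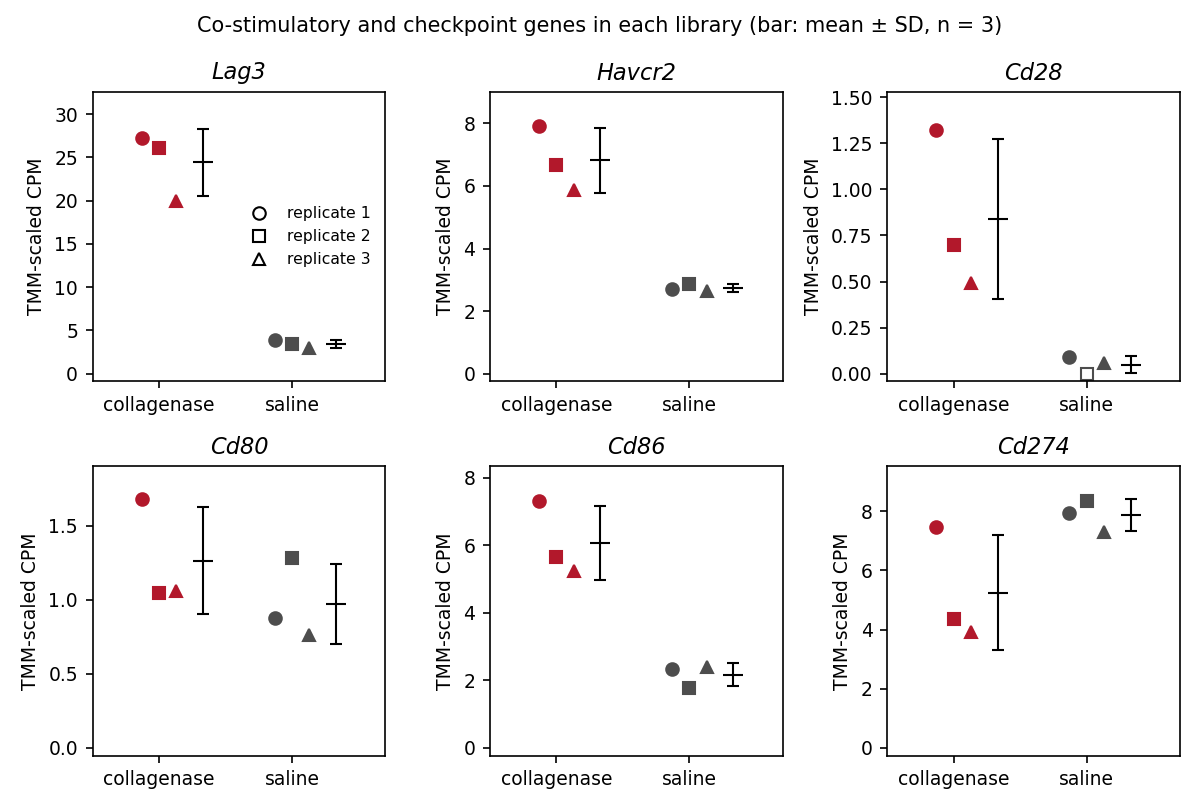
TMM-scaled CPM (vertical axes, 1 panel per gene) of the 6 genes in each of the 3 collagenase (red, left) and 3 saline (grey, right) libraries, with the mean and SD (n = 3) in black; the open square is a count of 0. Lag3, Havcr2, Cd28 and Cd86 do not overlap between groups, Cd80 and Cd274 do, and collagenase replicate 1 is the highest collagenase point in all 6 panels.

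In the fit across all genes 4 of the 6 members (Lag3, Havcr2, Cd28 and Cd86) passed an edgeR adjusted p of 0.05 as higher, where 2.12% of 17240 tested genes were called higher. The same 4 did not overlap between groups as higher, where 10.1% of tested genes did so. Because the members were chosen on this contrast, nothing is read from these counts. The same holds for the counts without a library and for the median of the members, given next as a description. The count of members was 4 without saline replicate 3, 3 without saline replicate 2 or collagenase replicate 3, and 2 without collagenase replicate 1 (Lag3 and Havcr2). Lag3 alone passed without saline replicate 1, where 0.483% of all tested genes were called, and without collagenase replicate 2, where 0.81% were called. The median log2 fold change was 1.40 over the 6 members and -0.02 over all tested genes.

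Within the groups the members varied unevenly. Collagenase replicate 1 was the highest collagenase library for 6 of 6 members, from 1.35-fold above the lowest for Havcr2 to 2.69-fold for Cd28. That library was also the highest collagenase library in summed level of the microglial, macrophage, monocyte and T cell marker lists given below. In the saline group the highest library differed by gene: replicate 1 for Lag3 and Cd28, replicate 2 for Havcr2, Cd80 and Cd274, and replicate 3 for Cd86.

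By FPKM, Lag3 was first in the collagenase libraries at 11.98 ± 2.22 FPKM, clear of the next gene. Havcr2 at 2.46 ± 0.468, Cd86 at 2.34 ± 0.518 and Cd274 at 1.43 ± 0.588 FPKM followed; the ranges of Havcr2 and Cd86 overlapped, as did those of Cd86 and Cd274. Cd80 at 0.404 ± 0.156 and Cd28 at 0.189 ± 0.106 FPKM were lowest. In the saline libraries Cd274 was first at 2.00 ± 0.247 FPKM with a range that overlapped that of Lag3 at 1.58 ± 0.275 FPKM. Havcr2 at 0.920 ± 0.0899 and Cd86 at 0.777 ± 0.101 FPKM overlapped with each other, and Cd80 at 0.280 ± 0.0896 and Cd28 at 0.0101 ± 0.00978 FPKM came last. The ratio of Lag3 to Cd274 was 6.60, 10.9 and 9.27 in the collagenase libraries, against 0.878, 0.748 and 0.741 in the saline libraries. In every collagenase library Lag3 exceeded Cd274, and in every saline library it was below it.

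**Figure D2:**
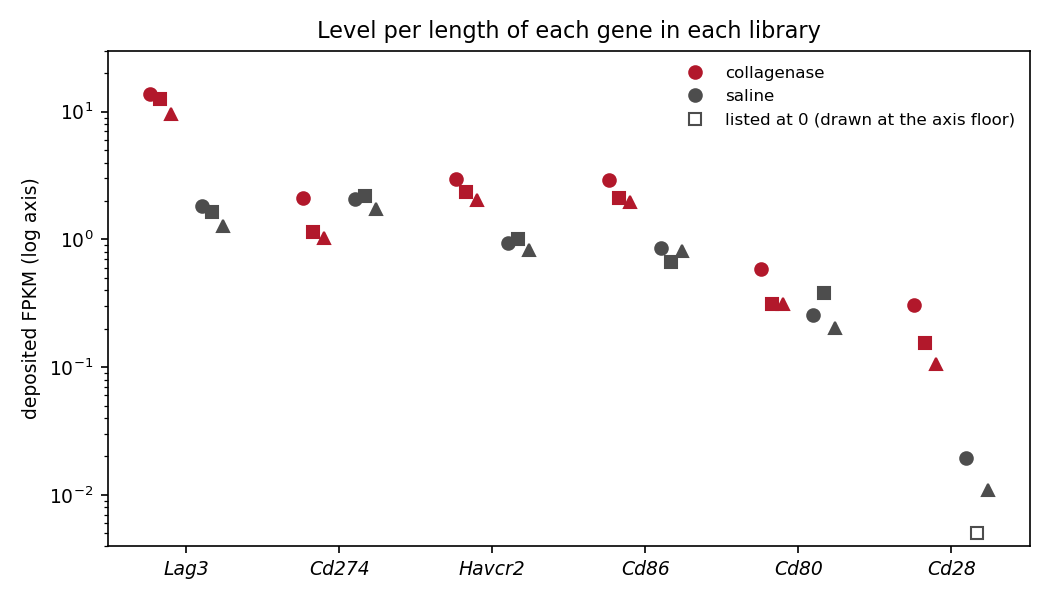
Deposited FPKM (vertical log axis) of each gene in each library, collagenase in red on the left of each pair and saline in grey on the right; circles, squares and triangles are replicates 1, 2 and 3, and the open square is a value listed at 0. Lag3 is first in the collagenase libraries at 9.54 to 13.9 FPKM, and Cd274 and Lag3 overlap in the saline libraries.

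The receptors of T cells were set beside the other genes of these cells. Of 14 T and NK cell markers analysed, 7 were tested and 4 passed as higher (Cd3e, Cd3g, Cd8a and Nkg7). All 4 had 0 counts in every saline library and entered the fit only through their collagenase counts, so no support is drawn from their calls; Trac and Trbc2, genes of the T cell receptor chains, were not analysed here. The T cell antigen receptor parts Cd3d, Cd3e and Cd3g together had 153, 72 and 47 counts in the collagenase libraries, against 0 counts in each saline library, which over the saline group allows up to 0.0266 CPM per gene for counting error. Cd8b1 was also at 0 counts in all saline libraries. In the same saline libraries Lag3 had 172, 119 and 102 counts. The list summed to 7.28 to 16.9 CPM in collagenase and 1.85 to 13.8 CPM in saline libraries, where the highest saline sum came from Cd4 in replicate 3. The number that passed was 0 without saline replicate 1, 2 without collagenase replicate 1 or 2, and 1 without collagenase replicate 3. The part of T cells in the differences of Lag3, Havcr2 and Cd28 was not tested.

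Markers of myeloid cells, which express Havcr2 and Cd86, differed unevenly, and many did not pass. Of 9 microglial genes 4 rose, among them Cx3cr1, Fcrls and Trem2, and the list summed to 394.9 to 552.6 CPM in collagenase and 241.8 to 251.4 CPM in saline libraries. Of 6 genes shared by microglia and macrophages 5 rose, with sums of 221.6 to 308.6 CPM in collagenase and 100.6 to 119.3 CPM in saline libraries. Among 8 monocyte and border macrophage genes Lyz2 and Ccr2 passed as higher. Ccr2 had 207, 48 and 78 counts in collagenase and 5, 10 and 7 counts in saline libraries. It entered the fit only through its collagenase counts. The call of Ccr2 ended without saline replicate 1 and without collagenase replicate 3 (edgeR adjusted p 0.103 and 0.0559). The other 6 genes did not pass, among them Ly6c2, Pf4 and Lyve1 with log2 fold changes of 0.04, 0.14 and -0.20. The sums of this list were 201.3 to 475.5 CPM in collagenase and 17.1 to 23.1 CPM in saline libraries. Lyz2 alone carried 182.8 to 447.4 CPM in collagenase and 7.36 to 10.5 CPM in saline libraries, and the other 7 genes 18.1 to 28.1 CPM in collagenase and 9.01 to 12.6 CPM in saline libraries. Genes of dendritic cells, which carry B7 ligands, summed to 27.6 to 30.2 CPM in collagenase and 27.5 to 30.6 CPM in saline libraries, of which Flt3 and Zbtb46 made up 23.2 to 27.7 CPM in collagenase and 26.4 to 29.4 CPM in saline libraries. The other 6 genes of that list summed to 2.53 to 4.45 CPM in collagenase and 0.968 to 1.80 CPM in saline libraries. Among 6 tested Ccr7 passed as higher, with 80, 31 and 57 counts in collagenase and 0, 2 and 6 counts in saline libraries, so that it too entered the fit only through its collagenase counts, and with a call in 1 of the 6 fits without a library. Of 3 tested B and plasma cell genes Jchain passed as higher. With 34, 31 and 9 counts in the saline libraries, Jchain also entered the fit only through its collagenase counts. The list summed to 5.81 to 11.1 CPM in collagenase and 0.763 to 1.66 CPM in saline libraries. Neither of the 2 tested neutrophil genes passed, and that list summed to 0.833 to 3.11 CPM in collagenase and 0.264 to 0.721 CPM in saline libraries. Among these 6 lists the neutrophil genes Ly6g and Mpo were the only markers at 0 counts in all saline libraries. Without saline replicate 1 the calls were 2 microglial, 2 shared microglial and macrophage, and 1 monocyte gene, and Jchain did not pass; without collagenase replicate 2 there were 3 shared genes and without collagenase replicate 3 there was 1 monocyte gene. The part of cell number in the members' differences was not tested.

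Relative to Csf1r, the growth factor receptor of microglia and macrophages, the members differed in direction; Csf1r and Ptprc as denominators were chosen after their values were seen. Csf1r itself averaged 141.0 ± 21.8 CPM in collagenase and 76.9 ± 3.80 CPM in saline libraries. The FPKM ratio of Lag3 to Csf1r was 0.387, 0.451 and 0.383 in the collagenase libraries, against 0.124, 0.105 and 0.0873 in the saline libraries, 3.86-fold by the means. For Havcr2 the ratio averaged 0.0833 ± 0.00119 in collagenase and 0.0614 ± 0.00431 in saline libraries, and for Cd86 0.0792 ± 0.00266 in collagenase and 0.0522 ± 0.00876 in saline libraries. Both were without overlap and 1.36-fold and 1.52-fold apart. The Cd80 ratio overlapped between groups, and that of Cd274 averaged 0.0472 ± 0.00999 in collagenase and 0.133 ± 0.0133 in saline libraries, without overlap. With Ptprc, the pan-leukocyte gene CD45, in the denominator the ratio of Lag3 was 4.00 ± 0.980 in collagenase and 3.12 ± 0.646 in saline libraries and overlapped. The Havcr2 ratio to Ptprc was then lower, at 0.817 ± 0.184 in collagenase and 1.84 ± 0.419 in saline libraries, so the direction for Havcr2, and likewise for Cd86 at 0.774 ± 0.163 in collagenase and 1.61 ± 0.635 in saline libraries, depended on the gene in the denominator. As a share of the summed CPM of the shared microglial and macrophage list, Havcr2 and Cd86 overlapped between groups, 1.04-fold and 1.16-fold apart. As a share of the microglial list they did not overlap, 1.29-fold and 1.45-fold apart. Lag3 did not overlap as a share of either list, at 2.94-fold and 3.69-fold.

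**Figure D3:**
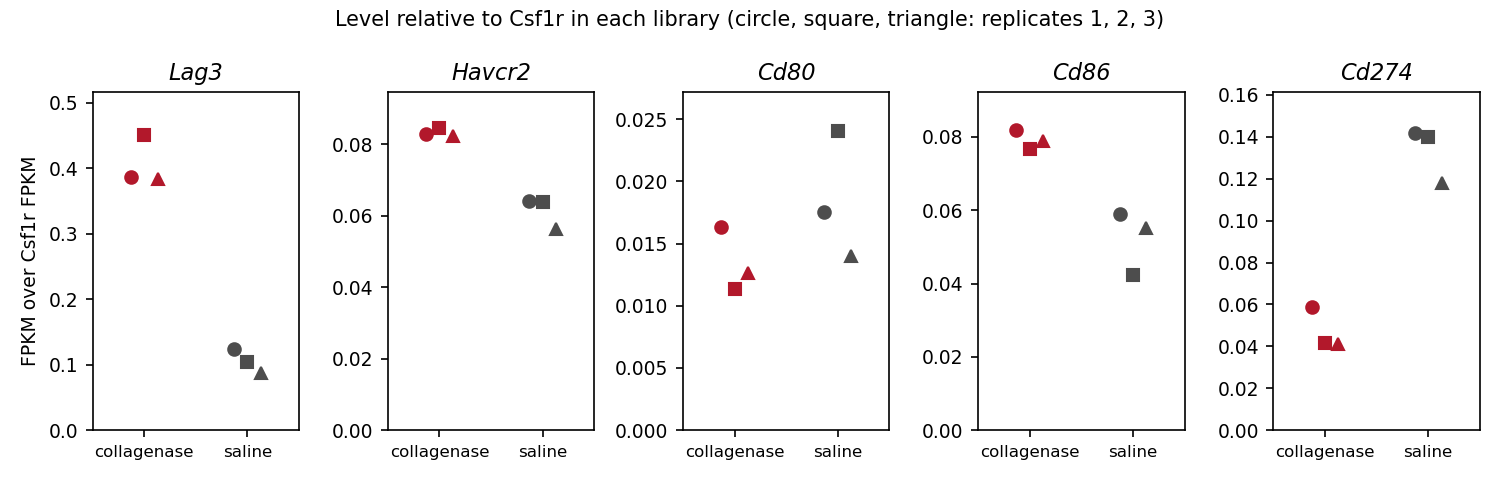
FPKM of 5 genes divided by the FPKM of Csf1r (vertical axes, a ratio without unit) in each collagenase (red, left) and saline (grey, right) library. The Lag3 ratio is 0.383 to 0.451 in collagenase and 0.0873 to 0.124 in saline libraries, and that of Cd274 is lower in every collagenase library.

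Partners of the members were taken from a list of 47 other co-stimulatory and checkpoint genes. Of these 2 had 0 counts in all 6 libraries, 19 had too few counts to be tested, and 26 were tested: 4 rose, 1 fell and 21 did not pass (edgeR adjusted p of 0.05). Over all tested genes 2.12% rose and 0.29% fell. The median log2 fold change of the 26 was 0.61, against -0.02 over all tested genes. Of the 4, Pdcd1 entered the fit only through its collagenase counts. Groups did not overlap for 10 of the 26 as higher, where 10.1% of all tested genes did so, and for 1 as lower, where 7.5% did so. Among these 10, Slamf6, Slamf7, Cd200r1 and Tnfrsf14, like Pdcd1, entered the fit only through their collagenase counts. Nothing is therefore read from that count or from the median of the list. The number that rose was 2 without saline replicate 1, collagenase replicate 1 or collagenase replicate 2, and the number that fell was 0 without saline replicate 1.

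Among ligands of LAG3, the class II chains H2-Aa, H2-Ab1 and H2-Eb1 and galectin-3 were higher. The class II list of 6 genes also holds Cd74, H2-DMa and H2-DMb1, which are not themselves LAG3 ligands. Of the 6 genes 5 rose (3 without saline replicate 1). H2-DMb1 was among the 5 and kept its call in 2 of the 6 fits without a library. Cd74, the invariant chain that guides class II molecules, measured 73.1 ± 18.1 CPM in collagenase and 4.05 ± 0.520 CPM in saline libraries. H2-Aa, a class II chain whose reads may be shared with close relatives, showed a log2 difference of 4.20 (SE 0.47) and lost its call without saline replicate 1 (edgeR adjusted p 0.0641). Lgals3, galectin-3, measured 34.8, 19.2 and 14.7 CPM in the collagenase libraries, against 0.901, 1.54 and 1.35 CPM in the saline libraries. It rose by 4.19 on the log2 scale (SE 0.38, edgeR adjusted p 0.0023) and passed in each of the 6 fits without a library. Fgl1, a secreted ligand of LAG3, measured 0.477 ± 0.166 CPM in collagenase and 0.285 ± 0.0897 CPM in saline libraries and did not pass, and Clec4g, also a reported ligand, had 2 counts in all.

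Among ligands of TIM-3, Lgals9, galectin-9, fell. It measured 13.6, 11.3 and 12.5 CPM in the collagenase libraries, against 25.0, 22.5 and 26.4 CPM in the saline libraries, without overlap. Its log2 fold change was -0.98 (SE 0.12, edgeR adjusted p 0.0080), and -0.97 with an edgeR adjusted p of 0.0607 without saline replicate 1. Havcr2 itself was higher in the same collagenase libraries. Ceacam1, another reported ligand, measured 5.08 ± 0.281 CPM in collagenase and 5.31 ± 0.678 CPM in saline libraries and did not pass.

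Pdcd1, which encodes PD-1, the receptor of PD-L1, had 49, 75 and 26 counts in the collagenase libraries, against 6, 0 and 2 counts in the saline libraries. The depth-scaled ratio of the sums was 17.1 with an exact 95% counting interval of 8.48 to 40.4, and the edgeR adjusted p was 0.0328. Because the gene entered the fit only through its collagenase counts, the call is given as a description. It ended in 4 of the 6 fits without a library: without saline replicate 1 (edgeR adjusted p 0.0936) and without collagenase replicates 1, 2 and 3 (0.0928, 0.12 and 0.0699). Pdcd1lg2, the gene of the other PD-1 ligand, had 0 counts in all 6 libraries, which allows up to 0.0127 CPM for counting error. The CD28 relatives Ctla4 and Icos stayed under the test's minimum, with sums of 15 and 55 counts in collagenase and 4 and 6 counts in saline libraries.

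Of the remaining list Vsir and Cd48 rose. Vsir, the B7-like inhibitory protein VISTA of myeloid cells, measured 54.2, 46.9 and 38.4 CPM in the collagenase libraries, against 25.2, 28.4 and 25.5 CPM in the saline libraries. Its log2 fold change was 0.82 (SE 0.14, edgeR adjusted p 0.024), and the call ended in 3 of the 6 fits without a library: saline replicate 1 (edgeR adjusted p 0.136) and collagenase replicates 1 and 2 (0.0755 and 0.0966). Cd48, a SLAM family surface protein of leukocytes, averaged 6.29 ± 1.58 CPM in collagenase and 0.471 ± 0.158 CPM in saline libraries, with a log2 fold change of 3.71 (SE 0.32, edgeR adjusted p 0.0017) and a call in all 6 fits without a library. The 6 most abundant genes that did not pass were Sirpa, Cd47, Cd200, Nectin3, Cd276 and Nectin2. Cd200, an inhibitory ligand of neurons, measured 86.4 ± 12.3 CPM in collagenase and 83.8 ± 4.57 CPM in saline libraries. Its myeloid receptor gene Cd200r1, chosen after its values were seen, measured 0.892 ± 0.298 CPM in collagenase and 0.264 ± 0.0844 CPM in saline libraries and did not pass (edgeR adjusted p 0.0933). Cd47, the signal that restrains phagocytosis, measured 207.5 ± 10.2 CPM in collagenase and 250.6 ± 32.2 CPM in saline libraries, and its receptor gene Sirpa 260.5 ± 20.5 CPM in collagenase and 248.1 ± 7.31 CPM in saline libraries. Nectin2 had a log2 fold change of 0.84 (SE 0.20), Nectin3 of -0.32 (SE 0.13) and Cd276 of -0.09 (SE 0.23).

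**Figure D4:**
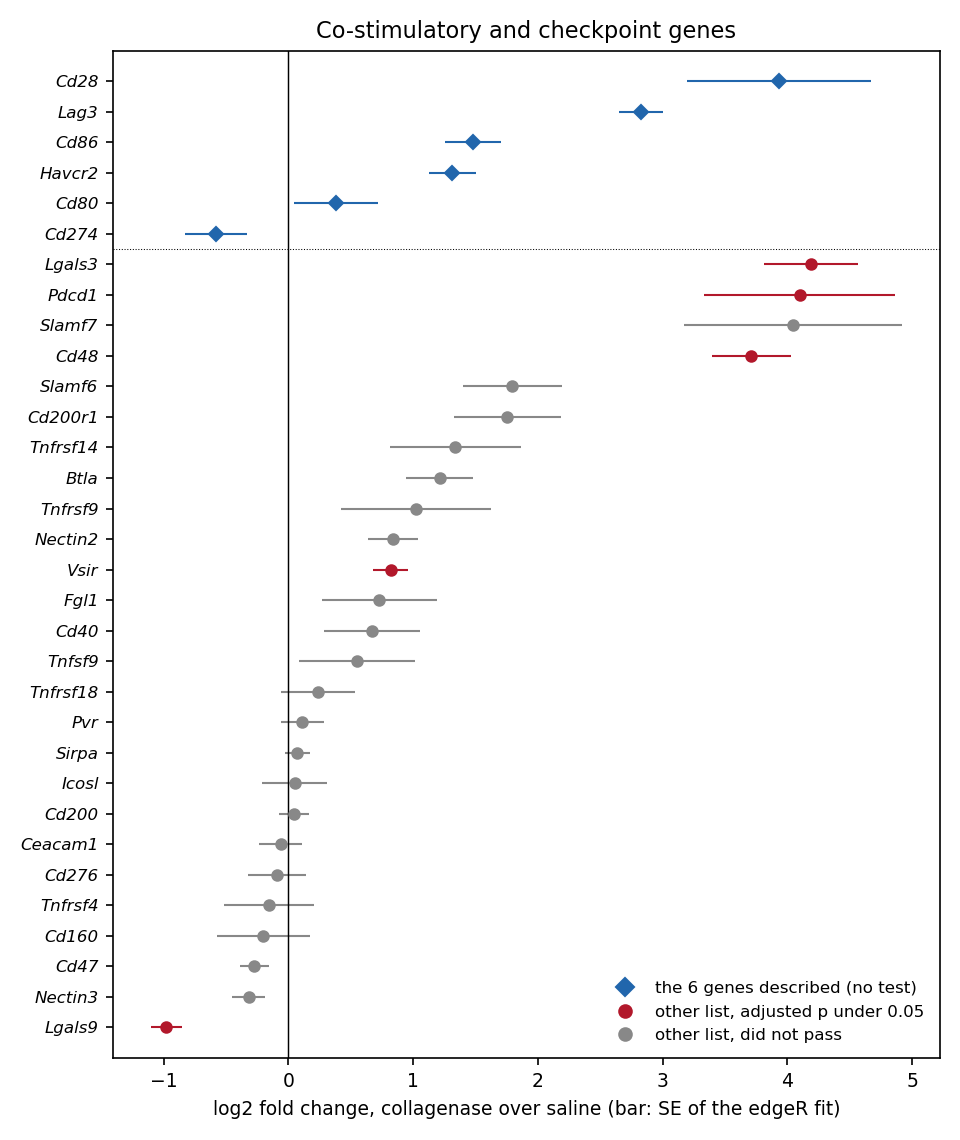
Log2 fold change, collagenase over saline (horizontal axis), with the SE of the edgeR fit for the 6 genes described (blue diamonds, top, no test) and the 26 tested genes of the other co-stimulatory and checkpoint list (circles, red where the adjusted p was under 0.05). Cd28, at 3.93, and Lag3, at 2.82, are highest among the 6, and Lgals9, at -0.98, is lowest of all genes drawn.

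Cd274 is itself inducible by interferons, and the interferon response genes differed by class. Of 10 type I interferon response genes 8 fell and 0 rose, where 0.29% of all tested genes fell. Ifi44 measured 2.29 ± 0.766 CPM in collagenase and 15.8 ± 1.08 CPM in saline libraries, and Rsad2 3.05 ± 1.38 CPM in collagenase and 13.9 ± 2.74 CPM in saline libraries. The number that fell was 2 without saline replicate 1 and 3 without collagenase replicate 2 or 3. The call of Rsad2 ended without saline replicate 1 and without collagenase replicate 2 (edgeR adjusted p 0.08 and 0.0719). Of 9 genes of the interferon gamma response 2 passed as higher, Cxcl9 and Irf8, and 7 did not pass. Irf8, a transcription factor of myeloid cells, showed a difference of 1.72 on the log2 scale (SE 0.24) and did not pass without saline replicate 1 (edgeR adjusted p 0.0628). Cxcl9, a chemokine that draws T cells, had 88, 32 and 57 counts in the collagenase libraries, against 2, 0 and 0 counts in the saline libraries, and entered the fit only through its collagenase counts.

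Genes whose log2 CPM over the 6 libraries was most like that of each member were ranked among 12844 or 12845 named genes. The libraries form 2 groups, and the points share that gap, so the Pearson r is a description only. For Lag3 they were Cd14, a co-receptor for bacterial lipopolysaccharide, Slc11a1, a metal transporter of phagosomes, and Gpnmb, a glycoprotein of lipid-laden phagocytes (r of 0.998 each), then Chil1, a secreted chitinase-like protein, and Mettl7a1 (0.995 each). For Havcr2 they were Lyz2, Ptafr and Trem2 (0.999 each), and for Cd86 Cd44, Unc93b1 and Lpcat2 (0.997, 0.997 and 0.996). For Cd28 they were Elf4, Cd300c2 and Grn (0.994, 0.994 and 0.993). For Cd80 they were Rpn2, Pltp and Snx18 (0.98, 0.979 and 0.979), and for Cd274 Akr1c14, Map4k5 and the interferon-induced gene Mx1 (0.99, 0.983 and 0.981). Mx1 measured 2.96, 0.968 and 0.881 CPM in the collagenase libraries, against 5.34, 4.63 and 3.49 CPM in the saline libraries. The r takes no account of the size of a difference. Among the 5 genes listed for Lag3, log2 fold changes ran from 0.24 for Mettl7a1 to 6.45 for Gpnmb, against 2.82 for Lag3. Those of Rpn2, Pltp and Snx18 were 0.07, 0.39 and 0.07, against 0.38 for Cd80.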

How the data were processed

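RNA of 3 collagenase and 3 saline samples was compared; groups and replicate numbers come from the sample titles. Per the submitters' processing notes FastQC, HISAT2 2.2.1, StringTie, DESeq2 and GRCm38 were used, without roles or order. The sources used here do not give the annotation release, strand setting or handling of reads that match several genes. Per the file headers, each library's deposited file holds whole-number raw counts and FPKM per feature, both made by the authors. Per the labels' protocols, poly(A) RNA was copied with random hexamers and no strand step is named. Lines of spilled annotation text were skipped. Symbols and positions came from GENCODE M21 (GRCm38).

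The count tests used edgeR 4.0.16, run in R 4.3.3 (filterByExpr, TMM, robust quasi-likelihood F-test, two-sided, Benjamini-Hochberg over 17240 features, threshold 0.05), a step checked on simulated data. Log2 CPM for likeness used a prior count of 2. Alternatives used DESeq2 1.42.0 and limma 3.58.1 on log2(FPKM + 0.1). The members, lists and the rule for named genes were chosen with earlier results of these data known. Named genes are the members, the listed partners that passed, the 6 most abundant that did not, up to 2 genes of each class II or interferon list with the largest fold change, and the genes most like each member (5 for Lag3, 3 for the others, with a mean log2 CPM of at least 1); other genes were chosen after their values were seen. Counting intervals and floors of 3 counts cover counting error only. Some results are not reported here.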

Additional observations from a re-analysis of the deposited data

How the results depend on the processing

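The direction of the log2 fold change of each of the 6 genes was kept in every alternative that gave a value. With DESeq2 size factors, no filter, DESeq2's test, a replicate block or deposited FPKM, Lag3 stayed between 2.82 and 2.84, Havcr2 between 1.31 and 1.32, Cd86 between 1.46 and 1.48, Cd80 between 0.38 and 0.39 and Cd274 between -0.64 and -0.52. Over fits that left out a library the values were 2.73 to 2.95 for Lag3, 1.19 to 1.41 for Havcr2, 3.42 to 4.70 for Cd28, 0.12 to 0.62 for Cd80, 1.32 to 1.58 for Cd86 and -0.93 to -0.41 for Cd274. Cd28, under the mean FPKM minimum of 0.1, was not in the FPKM fit, and stayed between 3.93 and 4.03 in the others. The FPKM fit put the median of all genes at 0.08, against -0.02 in the count fit. Among all genes 366 were higher and 50 lower; DESeq2's test gave 608 and 180, the FPKM fit 24 lower, and fits without a library 81 to 503 higher and 4 to 414 lower. Of the other list 4 were higher and 1 lower; DESeq2's test called 7 higher, adding Btla, Nectin2 and Slamf7, and fits without a library 2 to 5 higher and 0 to 1 lower. Counts without a library ranged from 3 to 5 for class II, 2 to 10 for type I interferon, 1 to 2 for interferon gamma, 0 to 4 for T and NK cells, 2 to 5 for microglia, 2 to 6 for microglia and macrophages and 1 to 3 for monocytes. The labels do not say whether the replicate numbers pair the samples. Same-numbered libraries had correlated deviations of 0.0439, 0.107 and 0.203. Collagenase replicates 2 and 3 correlated best with the saline replicate of the same number. Collagenase replicate 1 correlated best with saline replicate 2 (0.0759), so these values do not settle the pairing. With the replicate block 252 genes were higher and 50 lower, and the other list had 4 higher and 1 lower, with Slamf7 in place of Pdcd1. Cd28 and Pdcd1 had at most 6 counts in any saline library; the cause of these movements was not tested.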

Other observations

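Cd4, the neighbour and relative of Lag3 on chromosome 6, had 140, 21 and 24 counts in the collagenase libraries, against 27, 13 and 446 counts in the saline libraries. Saline replicate 3, with the 446 counts, had 0 counts of Cd3d, Cd3e, Cd3g, Cd8a and Nkg7, and its 102 Lag3 counts were the fewest of the 6 libraries.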
